A study of Homo sapiens with 6 samples.

Results

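The gene described here is CALCRL (Entrez gene 10203, on chromosome 2), which encodes the calcitonin receptor-like receptor. It was chosen by its difference between ATRA and DMSO, the largest among the 14884 genes with a named probe set, so this 1 gene is described without a test. It had 1 probe set, 16906285. RAMP1, RAMP2, RAMP3 and ADM, taken as its known partners and ligand gene with earlier results of these data known, give its context, and all 4 were measured. The arrays came from MM.1S, an established human multiple myeloma cell line, and so from a tumour of antibody-secreting plasma cells. Cells of both groups had first been exposed for 1 h to Cfz (carfilzomib, an inhibitor of the proteasome), at a dose the labels do not give. They were then kept for 12 h in the solvent DMSO (3 arrays) or in 10 µM ATRA (all-trans retinoic acid; 3 arrays), so the comparison is of ATRA after Cfz, and ATRA alone was not analysed here. The labels do not tell whether the arrays of a group were separate cultures. The spread behind every p-value below may therefore be technical.

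CALCRL is a class B G protein-coupled receptor, a family whose members answer peptide hormones. It works only in a pair with a receptor activity-modifying protein (RAMP), a single-pass membrane protein that carries it to the cell surface and sets which peptide it binds. With RAMP1 the pair is the receptor of calcitonin gene-related peptide, and with RAMP2 or RAMP3 it is a receptor of adrenomedullin. Ligand binding activates the stimulatory G protein, adenylyl cyclase and the kinase PKA. CALCRL is best known from blood and lymphatic endothelium. ATRA acts through retinoic acid receptors, which pair with retinoid X receptors on DNA at repeats of a hexamer related to AGGTCA.

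The promoter windows of the receptor and of its ligand gene ADM are shown because the first gene differed most and the second did not pass the test, although both belong to 1 signalling pair. Sequences are those of RefSeq on GRCh38.p14, from 250 bases before to 50 after 1 annotated start per gene, and 3 of the 5 genes looked up (CALCRL, ADM and RAMP3) were matched. Capitals mark matches on either strand to the hexamer AGGTCA, to its variant forms AGTTCA as well as GGGTCA and also GGTTCA, to direct repeats of these spaced by 1, 2 or 5 bases, to the cAMP response element TGACGTCA, to its shorter form TGACG, and to ACGTG, the core bound by hypoxia-inducible factors.
CALCRL, chr2:187448203-187448502, minus strand: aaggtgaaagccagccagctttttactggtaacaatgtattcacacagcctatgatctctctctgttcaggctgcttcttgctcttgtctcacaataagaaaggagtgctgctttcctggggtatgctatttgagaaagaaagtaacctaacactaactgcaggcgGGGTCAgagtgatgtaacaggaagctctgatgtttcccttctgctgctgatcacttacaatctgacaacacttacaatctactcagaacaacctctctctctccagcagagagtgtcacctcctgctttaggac
ADM, chr11:10304823-10305122, plus strand: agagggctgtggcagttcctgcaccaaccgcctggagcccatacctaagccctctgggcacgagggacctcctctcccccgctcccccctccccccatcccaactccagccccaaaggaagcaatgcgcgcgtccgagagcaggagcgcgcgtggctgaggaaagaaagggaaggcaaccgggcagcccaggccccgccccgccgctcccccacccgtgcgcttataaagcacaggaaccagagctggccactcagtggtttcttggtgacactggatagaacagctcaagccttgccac
The CALCRL window held a single match, GGGTCA from 84 to 79 bases before the start, and 14.1% of all 35116 promoter windows of this length hold that hexamer. Any of the 4 hexamers was found in 38.6% of windows, so the match is common. Direct repeats were found in 0.131% (spacing of 1), 0.0399% (2) and 0.0883% (5) of windows, and the CALCRL window held none of these letters. The element TGACGTCA was found in 1.85% of windows, its shorter form TGACG in 24.6% and ACGTG in 21.4%. The ADM window held none of the motifs searched. RAMP3 held GGGTCA on the minus strand at 15 to 20 bases after the start. The windows also differed in composition. CALCRL had 45.3% G and C bases and 1 CpG, where ADM had 65.0% and 16 and RAMP3 75.0% and 24. The median window had 58.7% and 14, and 11.0% of windows had at most 1 CpG. A match is a description of the letters, and binding was not measured.

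CALCRL was near the bottom of the intensity scale with DMSO and far above it with ATRA. Its intensity was 7.47, 8.72 and 8.57 on the DMSO arrays and 290, 299 and 279 on the ATRA arrays. The groups were far apart, and the arrays within each were close. The lowest ATRA value was 32.0 times the highest DMSO value, while the highest and lowest arrays differed 1.17-fold within DMSO and 1.07-fold within ATRA. The means were 8.25 ± 0.683 and 289 ± 9.99 (SD, n = 3 arrays each), a ratio of geometric means of 35.1 and a log2 difference of 5.13. On that scale the SDs were 0.12 with DMSO and 0.050 with ATRA. In such bulk samples, more cells with a transcript and more of it per cell cannot be told apart.

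The size of the ratio rests on the DMSO values, which say little more than that the signal was low. On each of the 3 DMSO arrays CALCRL was below that array's median over its 53617 probe sets, at 0.778 to 0.927 of it, and on the ATRA arrays at 28.6 to 31.2 times it. Setting every value under its array's median to that median gave a ratio of 30.4 (4.93 on the log2 scale). Adding 16 to all intensities gave 12.6 (3.65 on the log2 scale). Leaving out any 1 array gave ratios from 33.4 to 36.1.

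**Figure D1:**
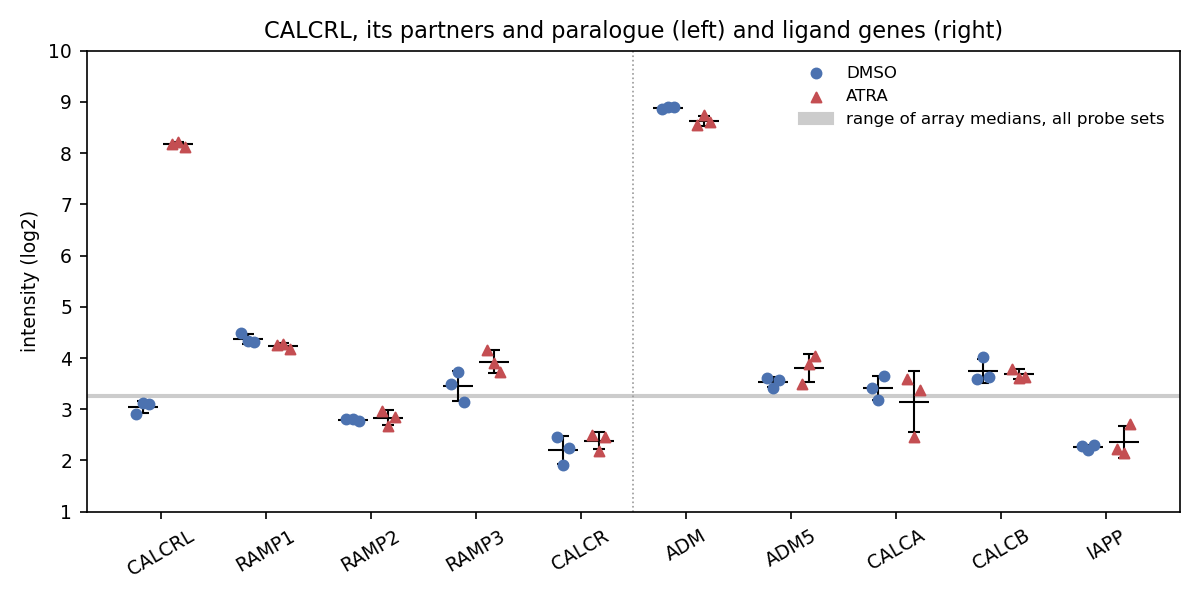
Log2 intensity on each array for CALCRL, its partners RAMP1 to RAMP3, the related receptor CALCR and 5 ligand genes, with circles for DMSO, triangles for ATRA, and bars for the mean and SD of 3 arrays. The grey band is the range of the arrays' medians over all probe sets. CALCRL moves from under the band to 8.17, the mean log2 level with ATRA, and no other gene shown differs by more than the 0.47 of RAMP3.

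Among all genes CALCRL stood alone in size. The gene next in order, EFEMP1, which encodes a matrix protein, differed by 3.17 on the log2 scale (9.01-fold). The number of genes at least 2-fold higher with ATRA was 81, with 18 at least 4-fold, 4 at least 8-fold and CALCRL alone at least 16-fold. The median difference of all genes was -0.01, with -0.30 and 0.27 as the 10th and 90th percentiles. A start from a low signal was not shared by most of the other large increases. Of 4709 genes whose mean DMSO level was under the array median, 6 were at least 2-fold higher with ATRA and 2 at least 4-fold, CALCRL and the guanylate-binding protein gene GBP4 (2.49, a call lost in 5 of the 6 fits without 1 array, limma adjusted p up to 0.0789). These are counts over named genes. Of the probe sets without a name, 1 differed more than CALCRL.

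**Figure D2:**
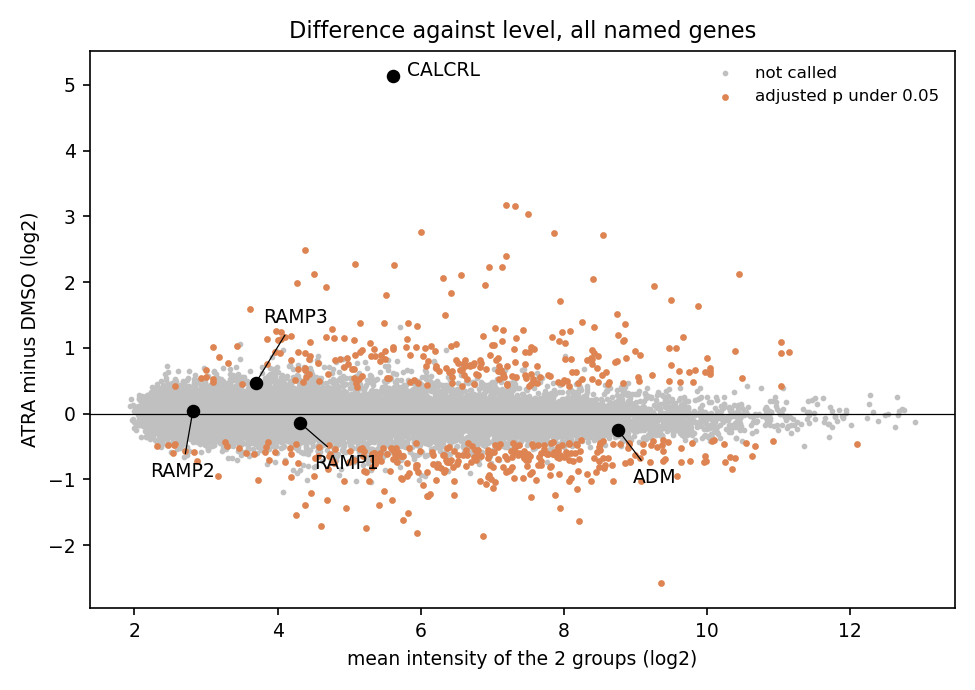
Difference between ATRA and DMSO against the mean of both groups, both in log2, for the 14884 named genes (points), with genes at a limma adjusted p under 0.05 in orange and CALCRL, its 3 partners and ADM in black. CALCRL is at 5.13, and RAMP1, RAMP2, RAMP3 and ADM lie within the cloud of genes around 0.

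None of the 3 RAMP genes passed the test across all genes (limma, Benjamini-Hochberg, threshold 0.05), by which 3.80% of all genes were called, 1.73% as higher and 2.07% as lower with ATRA. RAMP1, the partner for calcitonin gene-related peptide, was at 22.4, 20.1 and 19.9 with DMSO and 19.2, 19.4 and 18.0 with ATRA. The ATRA values were all lower, as near as 19.4 against 19.9, and such a separation was seen in 24.7% of all genes. The log2 difference was -0.14 (95% interval -0.36 to 0.08, limma adjusted p = 0.513).

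RAMP2, the partner that makes the main adrenomedullin receptor of endothelium, was at 6.97, 7.05 and 6.83 with DMSO and 7.86, 6.41 and 7.19 with ATRA. The groups overlapped, and all 6 values lay under their arrays' medians of 9.40 to 9.76. The difference was 0.04 (interval -0.21 to 0.28, limma adjusted p = 0.898). Without ATRA replicate 1 it was -0.03.

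RAMP3, the other adrenomedullin partner, was at 11.3, 13.3 and 8.87 with DMSO and 17.9, 15.0 and 13.2 with ATRA. The means were 11.2 ± 2.23 and 15.4 ± 2.40 (SD, n = 3), and the lowest ATRA array lay just under the highest DMSO array. Of the RAMP genes it had the highest difference, 0.47 on the log2 scale (interval 0.06 to 0.89), with an unadjusted limma p of 0.0313 and an adjusted p of 0.222. An unadjusted p under 0.05 was found for 17.9% of all genes. The intervals cover 1 gene at a time, and their upper ends are 0.08 for RAMP1, 0.28 for RAMP2 and 0.89 for RAMP3, against a difference of 5.13 for CALCRL.

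Adrenomedullin is made from ADM, whose probe set gave a clear signal in both groups. It was at 463, 478 and 476 with DMSO and 373, 428 and 390 with ATRA, so every ATRA array was lower than every DMSO array. Groups that did not overlap were seen in 24.7% of all genes. The means were 472 ± 8.33 and 397 ± 28.0 (SD, n = 3), 1.19-fold lower with ATRA. The log2 difference was -0.25 (SE 0.092, interval -0.47 to -0.04), with a limma adjusted p of 0.210. With a variance that follows the level (eBayes with trend and robust) ADM passed, at an adjusted p of 0.0236. That setting called 1327 of the 14884 genes, against 565 in the main fit.

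The other ligand genes had low signals. CALCA and CALCB, which encode the 2 forms of calcitonin gene-related peptide, were at 10.8 ± 1.76 and 13.6 ± 2.35 with DMSO and at 9.31 ± 3.37 and 12.9 ± 0.870 with ATRA (SD, n = 3). CALCA was low on 1 array, at 5.53 on ATRA replicate 2, against 12.0 and 10.4 on the other ATRA arrays. Its difference of -0.27 became 0.07 without that array, and that of CALCB changed from -0.07 to 0.07 without DMSO replicate 2. IAPP, the amylin gene, was at 4.80 ± 0.159 and 5.21 ± 1.17, and ADM5, a putative relative of ADM, at 11.6 ± 0.808 and 14.2 ± 2.58. In all, 0 of the 5 measured ligand genes passed (3.80% of all genes did), and their median difference was -0.07. Of these 5, 1 (ADM) had an unadjusted p under 0.05 (17.9% of all genes had).

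None of the genes that encode related receptors passed the test (3.80% of all genes did). CALCR, the calcitonin receptor and the nearest relative of CALCRL, was at 5.49, 3.76 and 4.72 with DMSO and 5.65, 4.57 and 5.49 with ATRA. These values overlapped and lay at the foot of the scale, with a difference of 0.18 (interval -0.19 to 0.55, limma adjusted p = 0.630) that was 0.03 without DMSO replicate 2. ACKR3, an atypical receptor that takes up adrenomedullin, was at 8.33 ± 1.37 and 6.75 ± 0.995, a difference of -0.30 (adjusted p = 0.374). CRCP, which encodes a small intracellular protein that couples CALCRL to signalling and is also a subunit of RNA polymerase III, was at 153, 147 and 143 with DMSO and 122, 130 and 126 with ATRA. Its groups did not overlap (nor did those of 24.7% of all genes), the difference was -0.23, and the adjusted p of 0.210 did not pass. Of the 6 measured receptors and partners other than CALCRL 0 passed, and the median was -0.05. Among them, 2 (RAMP3 and CRCP) had an unadjusted p under 0.05 (17.9% of all genes had). With 6 genes, few calls would be met at a share of 3.80%.

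Of 12 other measured class B peptide hormone receptors 0 passed (3.80% of all genes did). An unadjusted p under 0.05 was found for 2 of them (17.9% of all genes). The differences ran from -0.31 to 0.42 with a median of 0.10. The ends of that range were VIPR1, a receptor of vasoactive intestinal peptide (28.7 ± 2.66 with DMSO and 23.2 ± 2.03 with ATRA), and GHRHR, the receptor of growth hormone-releasing hormone (8.61 ± 0.566 and 11.6 ± 1.80). Of 14 measured genes that process or degrade peptides, from a list of 18, 0 passed and 2 had an unadjusted p under 0.05, with a median of -0.05. The largest differences there were those of TPSAB1, a mast cell tryptase gene (-0.85, adjusted p = 0.320), and PCSK7, a proprotein convertase (-0.30, adjusted p = 0.143). That of TPSAB1 rested in part on ATRA replicate 3, at 7.26 against 18.3 and 19.9, and was -0.39 without it. PCSK7 passed when the dimmer 50% of genes was left out (adjusted p = 0.0444), a setting that called 1143 of 7442 genes.

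Downstream of the receptor, none of the measured genes that make or carry the cAMP signal passed, where 3.80% of all genes did. With 23 measured genes, few calls would be met at that share. No subunit of PKA was among these genes. Of 23 measured members of this list of 37, 6 had an unadjusted p under 0.05 (17.9% of all genes had), 11 (47.8%, against 24.7% of all genes) had groups that did not overlap, and the median was 0.03. ADCY1, an adenylyl cyclase stimulated by calmodulin, was at 44.9, 62.8 and 64.3 with DMSO and 21.8, 40.0 and 24.0 with ATRA. That is 2.06-fold lower with ATRA (-1.04 on the log2 scale, SE 0.25), with groups that did not overlap but arrays that scattered, and a limma adjusted p of 0.0742. ADCY3, another cyclase, was at 237, 244 and 262 with DMSO and 188, 195 and 179 with ATRA, a difference of -0.40 (SE 0.091) with an adjusted p of 0.0621. Both passed without the dimmer 50% of genes (adjusted p = 0.0366 and 0.0167) and with eBayes with trend and robust (0.0110 and 0.00447). These settings called more genes in all, 1143 of 7442 and 1327 of 14884, against 565 of 14884 in the main fit. ADCY1 also passed without ATRA replicate 2 (0.0282). GNAS, the gene of the stimulatory G protein's alpha subunit, was looked up after the values were seen, and differed by 0.31 without passing.

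Enzymes that remove cAMP were measured for 5 of 16 listed genes, and 0 passed (3.80% of all genes did). PDE7A, a phosphodiesterase of lymphoid cells, was at 29.0 ± 2.96 with DMSO and 38.8 ± 2.87 with ATRA (0.42, adjusted p = 0.102, and 0.0368 without the dimmer 50% of genes), and PDE8A was at 66.3 ± 5.08 and 60.4 ± 2.36. Of 35 listed genes of receptor desensitisation and trafficking 16 were measured. Among these 0 passed and 2 had an unadjusted p under 0.05 (17.9% of all genes had), the median being -0.04. GRK5, a kinase that phosphorylates active receptors, had a difference of -0.35 (adjusted p = 0.115), which passed without the dimmer 50% of genes (0.0358) and with trend and robust (0.0401). RGS16, which shortens G protein signals, had a difference of 0.33 (adjusted p = 0.189).

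In the list of the CREB family, its coactivators and their kinases, SIK2 fell and was the 1 of 13 measured members that passed (7.69%, against 3.80% of all genes). SIK2, a kinase that PKA inhibits and that holds CREB coactivators in the cytoplasm, was at 285, 291 and 240 with DMSO and 187, 163 and 183 with ATRA. All ATRA values were lower, by 1.53-fold in the mean (-0.61, SE 0.11, limma adjusted p = 0.0318). The call was lost in 5 of the 6 fits that left out 1 array (adjusted p up to 0.115). The median of the list was -0.14.

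Transcripts that cAMP is known to raise in other cells moved on both sides of 0. Of 19 measured members of this list of 32, 6 passed (31.6%, against 3.80% of all genes), 1 higher and 5 lower, and the median was -0.14. CXCR4, the receptor that holds plasma cells in the bone marrow, rose 3.32-fold, from 397, 354 and 443 to 1370, 1345 and 1233. RGS1, a brake on chemokine receptor signals, fell from 445, 381 and 468 to 159, 224 and 207. DUSP1, a phosphatase of MAP kinases, fell from 498 ± 10.4 to 290 ± 10.7, and FOS, an immediate early transcription factor, from 62.3 ± 1.48 to 38.9 ± 5.52 (SD, n = 3). The limma adjusted p was 0.000539 for CXCR4, 0.00968 for RGS1, 0.00475 for DUSP1 and 0.0238 for FOS. The groups of these 4 genes did not overlap. The other calls were decreases of CCNA2 (-0.47), the cyclin A gene, and ODC1 (-0.46), an enzyme of polyamine synthesis, both also known from the cell cycle and growth. These 2 genes lost their calls in all 6 fits without 1 array (adjusted p up to 0.113 and 0.106). The number called lay between 2 and 4 when 1 array was left out, with 2 without DMSO replicate 1, 4 without ATRA replicate 2, and 3 without each of the other arrays. Calls over all 14884 genes also became fewer with 1 array left out, 207 to 317 against 565 in the main fit. FOS lost its call in 5 of these 6 fits (adjusted p up to 0.0929) and with its probe sets averaged (0.117), and RGS1 without DMSO replicate 1 (0.0509).

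ADM and its receptor are also known from hypoxia. Of 18 measured hypoxia-inducible transcripts, from a list of 27, 1 rose and 1 fell (11.1%, against 3.80% of all genes), with a median of -0.08. ANKRD37, an ankyrin repeat gene, rose 2.02-fold, from 39.2 ± 4.50 to 79.2 ± 7.59, and LDHA, lactate dehydrogenase A, fell from 120.0 ± 8.57 to 81.8 ± 8.04 (SD, n = 3; limma adjusted p = 0.00697 and 0.0402). LDHA lost its call in 5 of the 6 fits without 1 array (adjusted p up to 0.130).

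**Figure D3:**
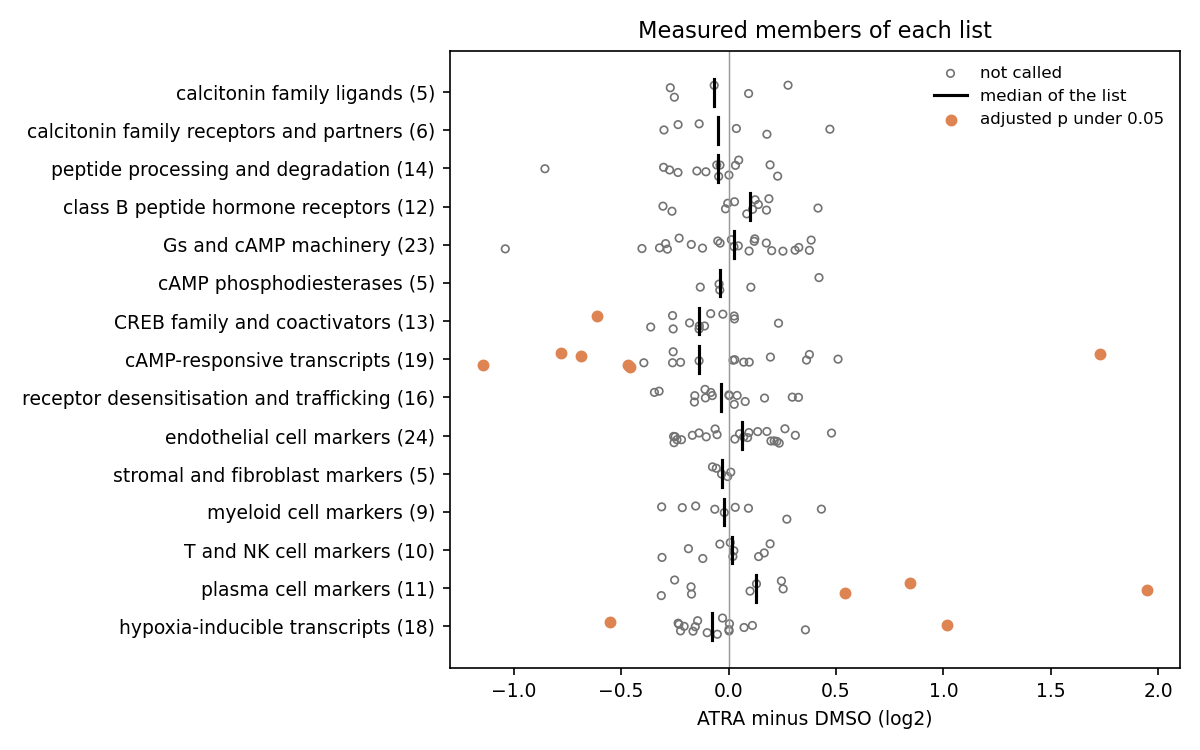
Difference between ATRA and DMSO in log2 for each measured member (points) of the 15 lists, with the number measured in brackets, the list's median as a black line and genes at a limma adjusted p under 0.05 in orange. CALCRL is in none of the lists. Calls lie in 4 of the lists, and the cAMP-responsive transcripts hold 1 above and 5 below 0.

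None of the nearest measured genes around CALCRL on chromosome 2 passed the test. Many genes between them were not measured here, so the 5 on each side lay 13 to 46 places before CALCRL and 2 to 22 places after it in the annotation. These genes differed by -0.26 to 0.27. Of these 10 genes 0 passed (3.80% of all genes did) and 0 had an unadjusted p under 0.05 (17.9% did). None had groups that did not overlap (24.7% did). With 10 genes, few would be met at these shares. TFPI, the nearest measured gene after CALCRL, 2 places away, and also an endothelial gene, encodes an inhibitor of blood coagulation. It was at 5.92, 5.51 and 5.83 with DMSO and 4.83, 5.65 and 5.40 with ATRA, a difference of -0.12 (interval -0.35 to 0.11, adjusted p = 0.580). The nearest measured gene on the other side, 13 places away, was ZC3H15, a zinc finger gene with a clear signal. It was at 447 ± 11.7 and 438 ± 15.2 (SD, n = 3; difference -0.03). WDR75, which acts in ribosome assembly, was at 665 ± 62.8 and 674 ± 91.7. Of the 10, FSIP2 (-0.26) and ZNF804A (0.27) had the largest differences. That of FSIP2 rested on 1 array, DMSO replicate 2 at 14.6 against 6.04 and 7.15, and became 0.13 without it. The rest were DUSP19 (-0.06), NUP35 (-0.21) and the microRNA genes MIR561 (-0.06), MIR1245A (0.01) and MIR3129 (0.06). DUSP19, TFPI, FSIP2 and these microRNA genes had means under the array medians in both groups, where a decrease could hardly be seen. Differences this near 0 changed sign in some alternatives. CALCRL-AS1, an RNA gene on the other strand that overlaps CALCRL, was not analysed here.

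**Figure D4:**
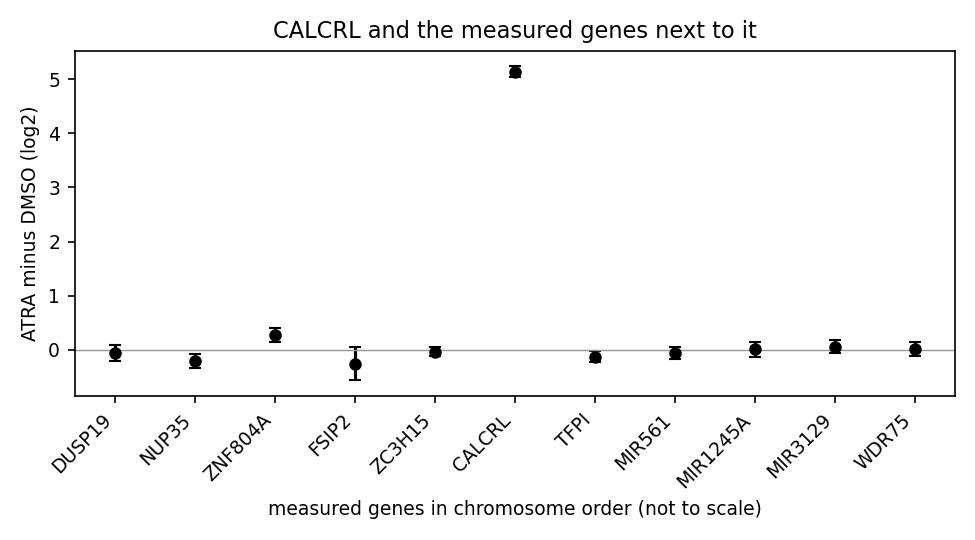
Difference between ATRA and DMSO in log2 with its SE (bars, limma, 3 arrays a group) for CALCRL and the 5 nearest measured genes on each side, in chromosome order and not to scale. CALCRL is at 5.13 and its neighbours lie between -0.26 and 0.27.

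The genes most like CALCRL in pattern were sought among the 124 other genes that differed at least 2-fold, by the root mean square distance between log2 values standardised over the 6 arrays. A distance of 0 would be the same shape, whatever the size. The closest were SREBF1, the transcription factor of fatty acid synthesis (distance 0.0241), MAPKAPK2, a kinase downstream of p38 (0.0275), MFGE8, a secreted protein that binds phosphatidylserine (0.0288), UAP1, which makes UDP-N-acetylglucosamine (0.0395), and CTSZ, a lysosomal cathepsin (0.0405). The median distance was 0.298, and 22 genes lay under 0.1. With 2 groups of 3 arrays this measure mainly finds genes with a wide gap between groups and little scatter within them, so the order among close genes has little weight. SREBF1 was at 53.0, 55.0 and 52.6 with DMSO and 486, 485 and 457 with ATRA (8.89-fold). MAPKAPK2 was at 212, 215 and 224 and then 549, 543 and 535 (2.50-fold). MFGE8 was 6.68-fold, UAP1 4.13-fold and CTSZ 5.27-fold higher.

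**Figure D5:**
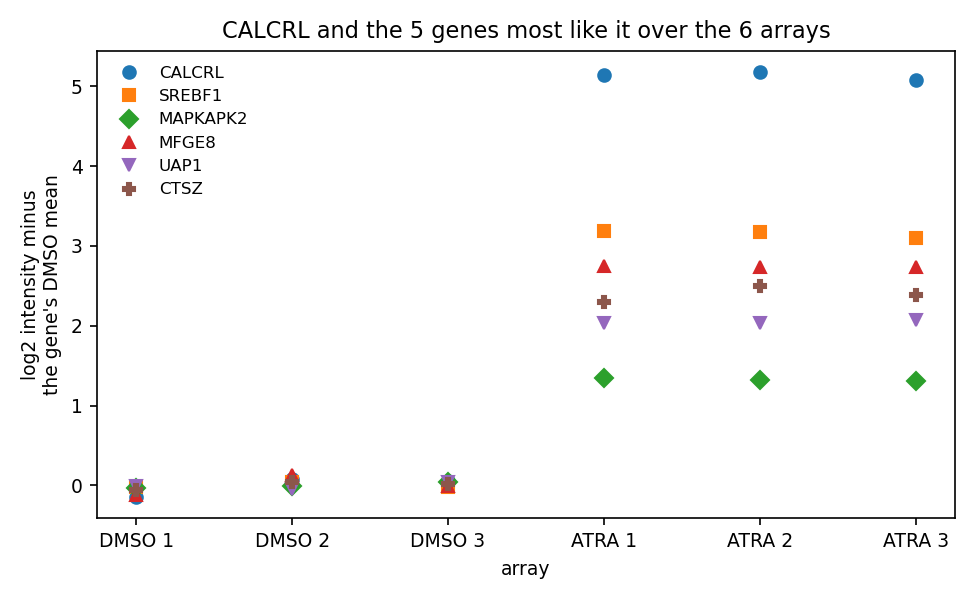
Log2 intensity minus the gene's mean over the DMSO arrays, on each of the 6 arrays, for CALCRL and the 5 genes closest to it in shape. The DMSO arrays lie near 0 for all 6 genes, and the ATRA arrays of CALCRL lie highest.

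Since CALCRL is known from endothelium, markers of that and other cell types were read beside it. Of 28 listed endothelial markers 24 were measured. Of these, 0 passed (3.80% of all genes did) and 3 had an unadjusted p under 0.05 (17.9% of all genes had). In 5 (20.8%, against 24.7% of all genes) the groups did not overlap, and the median difference was 0.06. Their summed intensity was 757 to 769 with DMSO and 802 to 827 with ATRA, and 15 of the 24 lay under the array median. The defining genes KDR (6.06 with DMSO and 5.82 with ATRA), PECAM1 (8.22 and 9.27) and TIE1 (7.71 and 6.87) were at the foot of the scale in both groups, while ESAM was at 128 and 123. Most of the summed intensity came from brighter listed markers that are not named here. A low signal therefore holds for some members and not for the list. The summed ranges did not overlap, and their part in the difference of CALCRL was not tested. The largest differences were those of ENG, a coreceptor of TGF-beta family ligands (11.1 ± 1.27 and 15.5 ± 2.02, adjusted p = 0.110), and CLDN5, a tight junction gene (13.5 ± 2.43 and 16.8 ± 3.96, adjusted p = 0.481; its difference of 0.31 was 0.13 without ATRA replicate 3). Measured were 5 of 13 listed stromal, 9 of 14 myeloid and 10 of 15 T and NK cell markers, so markers of each type are missing. None of those measured passed (3.80% of all genes did), and 0, 1 and 1 had an unadjusted p under 0.05 (17.9% did). In lists this short, few would be met at these shares. The medians of the lists were -0.03, -0.02 and 0.01. Their summed intensities were 46.0 to 57.2, 853 to 872 and 182 to 195 with DMSO and 45.9 to 52.2, 657 to 790 and 179 to 203 with ATRA. The largest differences were those of LUM (-0.07) and DCN (-0.06), of S100A9 (0.43) and CD68 (-0.31), and of CD8A (-0.31) and ZAP70 (0.19). CD68, a lysosomal protein that is not limited to myeloid cells, was at 710 with DMSO and 573 with ATRA and made up most of the myeloid sum. It passed with trend and robust (adjusted p = 0.00289) and without the dimmer 50% of genes (0.0343).

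Of 20 listed plasma cell markers 11 were measured, and of these 0 had a mean under the array median. By the test 3 rose (27.3%, against 1.73% of all genes) and 0 fell. With eBayes trend and robust 6 passed, in a setting that called 1327 of 14884 genes. The groups did not overlap for 8 of the 11, in either direction (72.7%, against 24.7% of all genes). The median difference of the list was 0.13. Lower without passing were SLAMF7 (-0.31), POU2AF1 (-0.25), IRF4 (-0.17) and DERL3 (-0.17). CD27 (0.25), MZB1 (0.25), SEC11C (0.13) and LAX1 (0.10) were higher without passing. CD38, an ectoenzyme, rose from 314 ± 24.8 to 1207 ± 34.9, SDC1, the proteoglycan CD138, from 761 ± 22.4 to 1366 ± 9.02, and XBP1, a transcription factor of secretory cells, from 1189 ± 39.6 to 1731 ± 42.3 (SD, n = 3; limma adjusted p = 0.000145, 0.00274 and 0.0175). XBP1 lost its call in all 6 fits without 1 array (adjusted p up to 0.0758). The summed intensity of this list was 9444 to 9730 with DMSO and 11522 to 11806 with ATRA. That sum includes CD38, SDC1 and XBP1, so it does not show a rise of the list as a whole. The part of these changes in the difference of CALCRL was not tested.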

How the data were processed

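Total RNA of the 6 samples was labelled with a whole-transcript kit and hybridised to 1-colour arrays, per the labels. The values the authors deposited are intensities on a linear scale for 53617 probe sets. RMA and limma are named in the submitters' processing notes, without role or version; a genome build is not given in the sources used here. RMA-type background correction and summarisation, where used, compress low values. Intensities were turned to log2 with no pseudocount, and limma's own log2 differences were computed from those deposited values.

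Symbols came from the platform annotation, in which 16098 probe sets had 1 symbol, 0 several, and 37519 are unnamed here. Each of the 14884 genes (all matched by Entrez ID to a GRCh38.p14 gene table, used for names and gene order) was represented by its probe set of highest mean. limma 3.58.1 in R 4.3.3 (lmFit, eBayes, two-sided, no block, no filter) compared 3 ATRA with 3 DMSO arrays, adjusted by Benjamini-Hochberg over the 14884 genes, with 0.05 as the threshold. Intervals are 95% and unadjusted. The steps were tested on simulated data. The number of arrays limits the precision.

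CALCRL, its context genes and the 15 lists (287 symbols, from general knowledge) were chosen with earlier results of these data known. Named genes are the calcitonin family members, per list up to 4 called members of largest difference or, with none called, the 2 of largest difference, the 10 neighbours, and the 5 genes most like CALCRL. Others are said to be chosen afterwards or stand for context (EFEMP1, GBP4, CCNA2, ODC1 and marker genes, named after their values were seen). Alternatives were the replicate block, leaving out each array, quantile and median normalization, the mean of probe sets, a floor or pseudocount for CALCRL, and, for tested genes, leaving out the dimmer 50% and eBayes with trend and robust. The last 2 called a larger share of all genes, so a call gained only there has less weight. Array intensities of different genes are not proportional to transcript amounts, since probes differ in response. Sums over a list therefore weight bright probe sets, and a place under the array median is a rough guide.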

Additional observations from a re-analysis of the deposited data

Results flagged for a closer look

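A signal larger than that of CALCRL appeared among the probe sets without a name, which no comparison of the report uses. Probe set 16707541 was at 14.4, 13.7 and 15.5 with DMSO and at 4851, 4843 and 4685 with ATRA. The means were 14.5 ± 0.920 and 4793 ± 93.6 (SD, n = 3), a log2 difference of 8.37, or 330-fold. It is the 1 probe set of 53617 whose difference exceeds that of CALCRL, and its gene is not named here.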

How the results depend on the processing

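The log2 difference of CALCRL (5.13) lay between 5.06 and 5.17 with 1 array left out, was 5.13 with quantile normalization and 5.11 with arrays at a common median, and moved to 4.93 with the array median as floor and to 3.65 with a pseudocount of 16. The 565 genes called over all genes became 1327 with eBayes with trend and robust, 1143 of 7442 without the dimmer 50% of genes, 200 with the replicate number as a block, and 207 to 317 with 1 array left out. The 9 called members of the pathway lists (126 measured) became 16 with trend and robust, 16 of 79 without the dimmer 50% and 3 with the replicate block, and 3 to 7 with 1 array left out. Of RAMP1 to RAMP3 and ADM, 0 passed in the other alternatives, with 1 array left out included, and 1 (ADM) with trend and robust. Only 2 of these 4 genes, RAMP1 and ADM, were left to test without the dimmer 50%. No neighbour of CALCRL passed in any alternative, where 4 of the 10 were left without the dimmer 50%. Whether same-numbered arrays of both groups were processed together was not known here. Deviations of same-numbered arrays from their group means correlated at 0.0170, 0.00867 and 0.0161 across genes. This does not settle whether they were paired. With the replicate block CCNA2, FOS, GBP4, LDHA, ODC1, RGS1, SIK2 and XBP1 lost their calls (adjusted p = 0.113, 0.0769, 0.0688, 0.0763, 0.108, 0.0506, 0.105 and 0.0808). Genes near 0 changed sign: MIR1245A (-0.0167 with a common median and -0.0182 with probe sets averaged), WDR75 (-0.0117 with a common median) and ZC3H15 (0.00446 with quantile normalization). With 1 array left out the ranges crossed 0 for CALCA (-0.49 to 0.0667), CALCB (-0.14 to 0.0714), DCN (-0.10 to 0.00758), DUSP19 (-0.19 to 0.0471), FSIP2 (-0.51 to 0.13), IAPP (-0.0843 to 0.20), MIR1245A (-0.0773 to 0.14), MIR3129 (-0.0185 to 0.18), MIR561 (-0.12 to 0.016), RAMP2 (-0.0342 to 0.11) and WDR75 (-0.0832 to 0.11). Over the 59 tested genes, 609 of 688 results under an alternative kept direction and side of the threshold, 48 lost the call, 12 gained it and 19 changed sign.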
